A study of Mus musculus with 8 samples.

Results

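The genes described here encode the enzymes of the urea cycle and of amino acid breakdown in mouse hepatocytes, 38 genes chosen by name from the 56748 genes of the raw count table. All 38 names matched a row, and all 38 were among the 14279 genes that passed the filter on low counts. Messenger RNA was sequenced from primary hepatocytes of C57BL/6J mice carrying floxed alleles of both genes (Yap fl/fl; Taz fl/fl), aged 7 to 8 weeks. Knockout mice (Yap/Taz HepKO) received AAV8-TBG-Cre and wild-type mice received AAV8-TBG-Null intravenously, so the floxed alleles and an AAV8 injection are common to every group and the Cre recombinase is not. The paper also names a ROSA26-LSL-tdTomato reporter allele that Cre switches on. Where it was present, tdTomato expression and the knockout cannot be told apart. The TBG promoter drives Cre in hepatocytes, and any other liver cell in the culture keeps its alleles. After 10 days the hepatocytes were isolated by collagenase perfusion and kept for 24 h on collagen-coated hydrogels of 1 kPa (soft) or 20 kPa (stiff), which gave 4 groups of 2 libraries: wild type on soft, wild type on stiff, knockout on soft and knockout on stiff. The sources do not say whether the 2 libraries of a group came from separate mice, so p-values measure the spread between these libraries, which may be technical. The sources disagree on the sex of the mice, the series text naming females and the sample protocol males. The 4 Y-linked genes examined had 0 counts in each of the 8 libraries, and Xist, a transcript of female cells, had 4818 to 8443. The counts are thus those of female cells, as in the series text.

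Hepatocytes break amino acids down and dispose of the nitrogen. Ammonia and aspartate nitrogen enter the urea cycle, which begins in mitochondria with Cps1 and Otc and continues in the cytosol with Ass1, Asl and Arg1, while Nags makes the activator that Cps1 requires. In the intact lobule, urea synthesis and Gls2 lie mainly in periportal hepatocytes, and Glul, which fixes the remaining ammonia as glutamine, lies in the hepatocytes around the central vein. The carbon skeletons pass through separate routes for tyrosine, tryptophan, histidine, serine and glycine, methionine, lysine and the branched-chain amino acids.

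The libraries held 18324083 to 26442310 assigned reads. Reads of the targeted genes were lower in every knockout library: Yap1 was at 99.8 and 95.5 CPM in wild type on soft, 140.5 and 135 in wild type on stiff, 29.2 and 31.8 in knockout on soft and 28.4 and 31.3 in knockout on stiff hydrogel, and Wwtr1, which encodes TAZ, was at 42.5 and 41.5 CPM in wild type on soft, 63.9 and 65.2 in wild type on stiff, 16.0 and 16.6 in knockout on soft and 15.7 and 13.7 in knockout on stiff hydrogel. CPM is the count of a gene scaled by library size. Both genes thus kept a residual level in the knockout libraries. Albumin took 8.01 to 8.55% of reads in wild type and 5.54 to 5.61% in knockout, and the 38 genes together took 0.293 to 0.301% and 0.256 to 0.258%. Mitochondrially encoded genes took 2.75 to 2.77% of reads in the wild-type stiff libraries and 3.20 to 3.68% in the other 6, and the part of this in the results was not tested. In bulk RNA, fewer cells of a type and less RNA per cell cannot be told apart. A gene is said to rise or fall below where edgeR's quasi-likelihood test gave a Benjamini-Hochberg adjusted p under 0.05 over all 14279 genes and the log2 fold change was above 0.5 in size. Log2 fold changes are given ± SE, the size of the change divided by the square root of the F statistic of that test. The fit of all 8 libraries left 4 residual degrees of freedom. By sharing the spread across genes, edgeR added further degrees of freedom (median 13.3), and the 95% intervals use both.

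Levels were compared between genes per kilobase of gene length (RPKM). In wild-type cells on soft hydrogel the highest mean levels were those of Gnmt, the glycine N-methyltransferase, at 131 RPKM, of Mat1a, which makes S-adenosylmethionine, at 111, of Ass1 at 101 and of Ahcy, which hydrolyses S-adenosylhomocysteine, at 89.6. Cps1 stood at 16.1 and Otc at 15.2. The lowest was Sds, the serine dehydratase, at 0.632 RPKM, and it stayed lowest in the other 3 groups. Mat1a left the leading genes on stiff hydrogel in wild type, at 54.7 RPKM, whereas Gnmt reached 204 and Ass1 172 there.

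**Figure D1:**
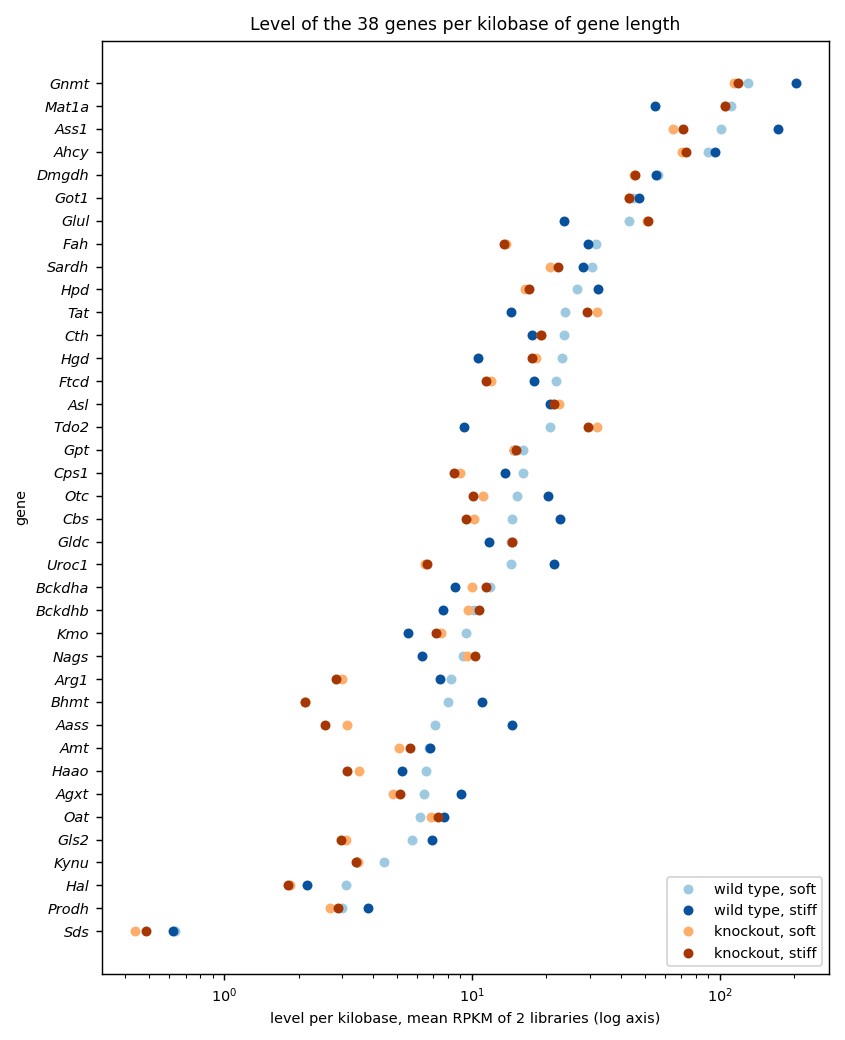
Mean level per kilobase (RPKM, log axis) of each of the 38 genes, each point being the mean of the 2 libraries of 1 group and the genes sorted by their level in wild-type soft libraries. Levels ran from 0.632 RPKM for Sds to 131 RPKM for Gnmt in wild-type soft libraries, and the dark blue points of wild-type stiff libraries depart from the light blue ones in both directions.

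The first comparison asked how stiffness changed these genes in wild-type hepatocytes. On stiff hydrogel 6 genes rose and 8 fell, and 24 did not pass both thresholds. Those that rose were Aass, Ass1, Cbs, Gnmt, Uroc1 and Agxt, and those that fell were Tdo2, Hgd, Mat1a, Glul, Kmo, Tat, Nags and Hal. Among all genes tested, 19.3% changed, 10.0% upwards and 9.26% downwards. The median log2 fold change of the 38 genes was -0.11, beside -0.0087 over all genes tested, and the median size of the change was 0.38 beside 0.27. Levels thus moved in both directions within the pathway, in the urea cycle, in the histidine route and in the methionine route alike. Hnf4a, a transcription factor that maintains hepatocyte gene expression, fell from 379 and 365 CPM to 186 and 193 CPM in the same comparison, and its part in these changes was not tested.

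The second comparison put the same question to Yap/Taz knockout hepatocytes. None of the 38 genes passed the edgeR test there, and DESeq2 called 0 as well. By edgeR 3 of the 38 had an unadjusted p under 0.05, beside 1077 of all 14279 genes tested. Only 0.0210% of all genes tested changed. The log2 fold changes of the 38 genes lay between -0.28 for Aass and 0.20 for Bckdha, with a median of 0.0012 beside 0.0076 over all genes, and a median size of 0.072 beside 0.092. The 95% intervals were narrow for abundant genes, at -0.08 to 0.08 for Mat1a and -0.09 to 0.12 for Glul, and wide for Sds, at -0.81 to 1.15.

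The difference between the stiffness effects was tested directly as an interaction, the effect in knockout minus the effect in wild type. It was called for 15 of the 38 genes, 9 with a positive and 6 with a negative value, against 16.8% of all genes tested (8.64% positive and 8.21% negative). The median over the 38 genes was 0.14 beside 0.015 over all genes. The positive ones were Hgd, Tdo2, Mat1a, Glul, Kmo, Nags, Bckdha, Bckdhb and Tat, and the negative ones Aass, Cbs, Ass1, Gnmt, Uroc1 and Otc. Of the 14 genes that changed in wild type, Hal and Agxt did not pass for the interaction, at 0.49 ± 0.164 (adjusted p = 0.0324) and -0.43 ± 0.187 (adjusted p = 0.0946).

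**Figure D2:**
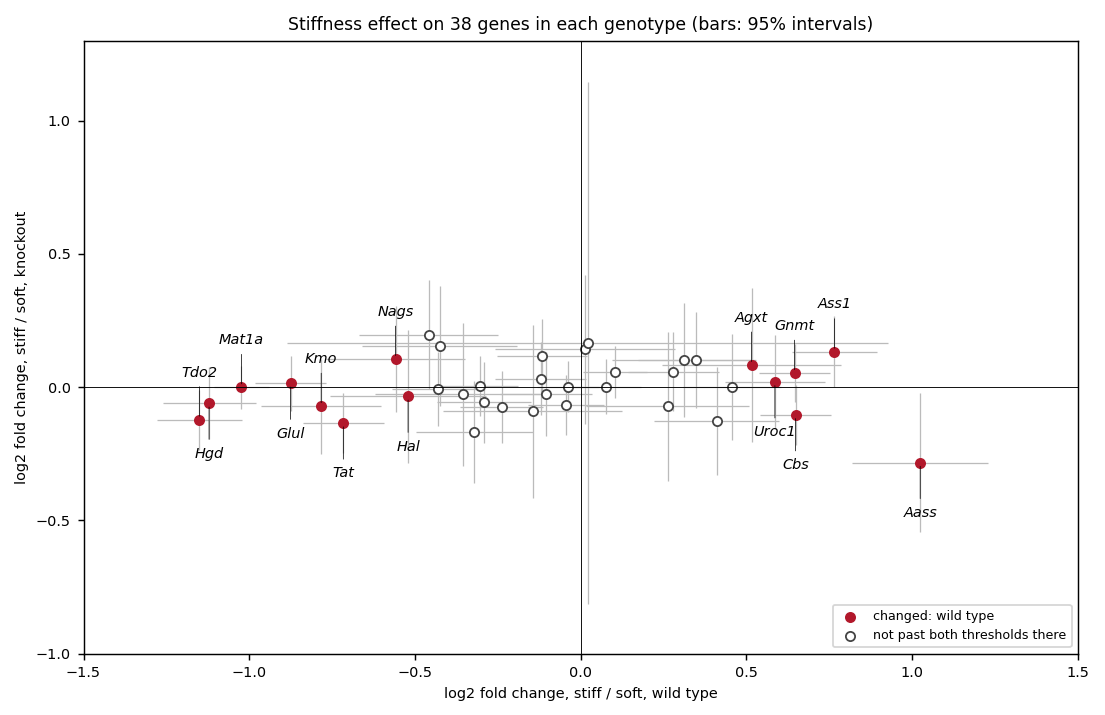
Log2 fold change of stiff over soft hydrogel in wild type (horizontal axis) and in knockout (vertical axis) for the 38 genes, with 95% intervals as grey bars and the 14 genes that changed in wild type in red. The points spread from -1.15 (Tdo2) to 1.02 (Aass) along the wild-type axis and from -0.28 to 0.20 along the knockout axis.

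Knockout was then set against wild type on each hydrogel. On soft hydrogel 1 of the 38 genes, Tdo2, was higher in knockout and 14 were lower, against 6.67% of all genes tested (2.02% higher and 4.65% lower). The median of the 38 genes was -0.35 beside -0.00031 over all genes. On stiff hydrogel 6 were higher and 15 lower, against 28.7% of all genes tested (13.7% higher and 15.0% lower), and the median was -0.31 beside 0.011. The largest differences on soft hydrogel were those of Bhmt (-1.92), Arg1 (-1.45) and Fah (-1.20), and on stiff hydrogel those of Aass (-2.50), Bhmt (-2.37), Uroc1 (-1.71) and Tdo2 (1.66). These comparisons and the stiffness comparisons share libraries, and the values of each gene are therefore given side by side.

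**Figure D3:**
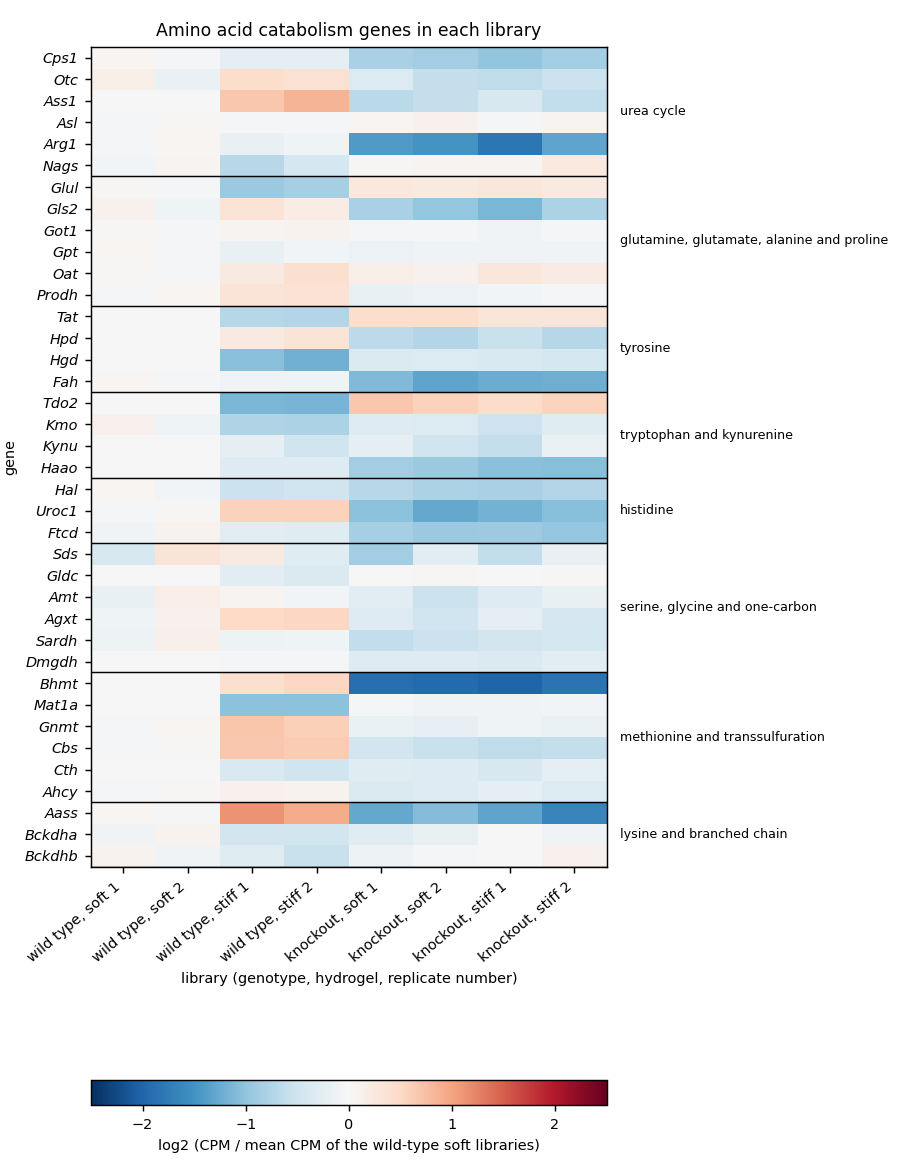
Level of the 38 genes in each of the 8 libraries, as log2 of CPM over the mean CPM of the wild-type soft libraries, grouped by the route the enzymes belong to; red is higher and blue lower. Tdo2, Mat1a and Glul are blue and Aass and Cbs red in the 2 wild-type stiff libraries, and Bhmt, Arg1 and Fah are blue in all 4 knockout libraries.

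The promoter sequences of the 2 genes with the largest falls on stiff hydrogel in wild type, Tdo2 (ENSMUSG00000028011) and Hgd (ENSMUSG00000022821), and of the gene with the largest rise, Aass (ENSMUSG00000029695), are shown because these genes mark the ends of the wild-type response. Each is the 250 bases upstream of the transcription start that RefSeq gives in build GRCm38.p6, read 5′ to 3′ on the strand of the gene. Tdo2 is on the minus strand (chr3:81975729-81975978), Hgd on the plus strand (chr16:37579903-37580152) and Aass on the minus strand (chr6:23132987-23133236). Capitals mark a match to a motif.
Tdo2: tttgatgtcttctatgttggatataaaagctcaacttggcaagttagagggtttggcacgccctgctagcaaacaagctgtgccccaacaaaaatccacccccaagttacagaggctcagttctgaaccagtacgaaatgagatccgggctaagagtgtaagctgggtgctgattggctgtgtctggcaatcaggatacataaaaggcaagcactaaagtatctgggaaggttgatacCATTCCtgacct
Hgd: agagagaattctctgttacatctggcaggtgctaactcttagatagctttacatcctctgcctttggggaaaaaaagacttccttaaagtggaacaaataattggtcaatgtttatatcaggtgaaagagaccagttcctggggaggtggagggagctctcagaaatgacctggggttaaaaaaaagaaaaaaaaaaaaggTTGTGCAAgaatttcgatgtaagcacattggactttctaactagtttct
Aass: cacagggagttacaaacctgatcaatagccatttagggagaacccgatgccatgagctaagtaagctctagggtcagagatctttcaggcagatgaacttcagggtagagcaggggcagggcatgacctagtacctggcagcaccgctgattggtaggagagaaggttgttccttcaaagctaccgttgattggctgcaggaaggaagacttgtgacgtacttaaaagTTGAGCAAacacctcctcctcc
The motifs searched on both strands were CATTCC, the core bound by TEAD factors, the partners of YAP and TAZ on DNA, TTGCNNAA for C/EBP factors and CAAAGTCCA for HNF4A. CATTCC lay 12 to 7 bases before the Tdo2 start, and TTGCNNAA lay 49 to 42 bases before the Hgd start and 22 to 15 bases before the Aass start, both on the opposite strand. CATTCC was found in 6 of the 29 promoters matched among the 38 genes (20.7%) and in 12.6% of all 27025 promoters of this length, TTGCNNAA in 3 (10.3%) and 9.55%, and CAAAGTCCA in 0 and 0.381%. A match describes these letters in this window only.

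Within the urea cycle, the members did not move together. Ass1, the argininosuccinate synthase, was at 244 and 245 CPM in wild type on soft, 392 and 439 in wild type on stiff, 153 and 161 in knockout on soft and 185 and 159 in knockout on stiff hydrogel. Both wild-type stiff libraries were above all others, and the knockout libraries were below both wild-type groups. Its stiffness effect was 0.77 ± 0.0612 (adjusted p = 1.05e-08) in wild type and 0.13 ± 0.0629 (adjusted p = 0.658) in knockout, with an interaction of -0.63 ± 0.0877 (adjusted p = 2.23e-05). Nags, the N-acetylglutamate synthase, went the other way and was at 25.2 and 27.4 CPM in wild type on soft, 16.3 and 19.3 in wild type on stiff, 26.7 and 27.6 in knockout on soft and 27.4 and 31.0 in knockout on stiff hydrogel. Only the wild-type stiff libraries were low, and the other 6 libraries lay between 25.2 and 31.0 CPM. Nags fell by 1.47-fold in wild type, a log2 change of -0.56 ± 0.0996 (adjusted p = 0.000185), and its interaction was 0.66 ± 0.137 (adjusted p = 0.0012). Without the second wild-type soft library or the first wild-type stiff library, the change in wild type was -0.50 or -0.43 and no longer passed the fold threshold.

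Cps1, the carbamoyl phosphate synthetase, separated the genotypes more than the hydrogels and was at 92.2 and 86.1 CPM in wild type on soft, 75.4 and 76.0 in wild type on stiff, 50.7 and 48.6 in knockout on soft and 45.0 and 49.4 in knockout on stiff hydrogel. It was lower in knockout on soft (log2 fold change -0.85 ± 0.0609, adjusted p = 9.05e-09) and on stiff hydrogel (log2 fold change -0.68 ± 0.0623, adjusted p = 3.81e-08), and its stiffness effect in wild type, -0.24 ± 0.0595 (adjusted p = 0.0035), was under the fold threshold. Otc, the ornithine transcarbamylase, was at 72.0 and 57.3 CPM in wild type on soft, 88.0 and 84.6 in wild type on stiff, 51.2 and 42.6 in knockout on soft and 41.5 and 44.7 in knockout on stiff hydrogel. The 2 wild-type soft libraries lay further apart than those of any other group, and the wild-type stiff libraries were above both. Otc was lower in knockout on stiff hydrogel (log2 fold change -1.0 ± 0.0932, adjusted p = 4.74e-08) and had a value of -0.47 ± 0.0928 (adjusted p = 0.00134) on soft hydrogel. Its interaction of -0.54 ± 0.131 (adjusted p = 0.00452) was -0.40 and under the fold threshold without the second wild-type soft library and likewise without the first knockout soft library, and -0.49 without the first knockout stiff library.

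Arg1, the cytosolic arginase that releases urea, was at 17.8 and 18.8 CPM in wild type on soft, 16.1 and 17.0 in wild type on stiff, 6.91 and 6.47 in knockout on soft and 5.25 and 7.36 in knockout on stiff hydrogel. The knockout libraries ran from 5.25 to 7.36 CPM and the wild-type libraries from 16.1 to 18.8, whatever the hydrogel. The difference was 2.73-fold on soft (log2 fold change -1.45 ± 0.139, adjusted p = 3.81e-07) and 2.63-fold on stiff hydrogel (log2 fold change -1.39 ± 0.143, adjusted p = 1.81e-07). Asl, the argininosuccinate lyase, was at 100.4 and 106 CPM in wild type on soft, 99.6 and 100.2 in wild type on stiff, 107 and 110.4 in knockout on soft and 99.4 and 108 in knockout on stiff hydrogel. All 8 libraries lay close together, and the 95% intervals of its log2 fold changes were -0.16 to 0.07 for stiffness in wild type and -0.06 to 0.16 for knockout on stiff hydrogel. Thus 3 of the 6 urea cycle genes were lower in knockout on soft hydrogel, beside 4.65% of all genes tested. On stiff hydrogel 4 were lower and 1, Nags, higher, beside 15.0% and 13.7% of all genes tested.

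Of the 6 genes of glutamine, glutamate, alanine and proline metabolism, Glul fell on stiff hydrogel in wild type and none rose. Among all genes tested, 9.26% fell and 10.0% rose in that comparison. Glul, the glutamine synthetase, was at 166 and 161 CPM in wild type on soft, 85.9 and 92.1 in wild type on stiff, 196 and 190.5 in knockout on soft and 199 and 191 in knockout on stiff hydrogel. The wild-type stiff libraries were the low ones, and the knockout libraries were above every wild-type library. Its stiffness effect was -0.88 ± 0.0505 (adjusted p = 1.14e-10) in wild type against 0.01 ± 0.0483 (adjusted p = 0.966) in knockout, with an interaction of 0.89 ± 0.0698 (adjusted p = 1.87e-08). Knockout exceeded wild type 2.19-fold on stiff hydrogel, and on soft hydrogel by a log2 value of 0.24 ± 0.0485 (adjusted p = 0.00138).

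Gls2, the liver-type glutaminase that supplies ammonia to the urea cycle, was at 21.4 and 18.4 CPM in wild type on soft, 25.2 and 22.8 in wild type on stiff, 11.3 and 10.2 in knockout on soft and 9.09 and 11.5 in knockout on stiff hydrogel. The knockout libraries were all below the wild-type libraries, with log2 fold changes of -0.89 ± 0.124 (adjusted p = 3.41e-05) on soft and -1.23 ± 0.125 (adjusted p = 1.68e-07) on stiff hydrogel. Prodh, the proline dehydrogenase, was at 22.5 and 24.3 CPM in wild type on soft, 29.3 and 30.1 in wild type on stiff, 20.7 and 21.1 in knockout on soft and 22.3 and 22.5 in knockout on stiff hydrogel, with a stiffness effect of 0.35 ± 0.0829 (adjusted p = 0.00253) in wild type. Oat, the ornithine aminotransferase, was at 14.8 and 14.4 CPM in wild type on soft, 17.2 and 19.2 in wild type on stiff, 16.5 and 15.8 in knockout on soft and 17.8 and 16.8 in knockout on stiff hydrogel, with 0.31 ± 0.103 (adjusted p = 0.0217). The aminotransferase genes Got1 and Gpt had log2 fold changes between -0.13 and 0.08 in the 4 simple comparisons. Reads of Gls2 and Prodh could not be told apart from those of genes on the other strand if counting ignored strand, and these neighbours, Spryd4 and Dgcr6, had mean counts of 198% and 176% of theirs. Spryd4 had a value of -0.10 (adjusted p = 0.439) for knockout against wild type on soft hydrogel. Oat overlaps Fgfr2 on its own strand, which had 30.9% of its counts.

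In the tyrosine route, the first and the third enzyme described here fell on stiff hydrogel in wild type and the other 2 did not pass. Among all genes tested, 9.26% fell in that comparison. Tat, the tyrosine aminotransferase that begins the route, was at 57.3 and 56.7 CPM in wild type on soft, 35.0 and 34.4 in wild type on stiff, 77.2 and 77.0 in knockout on soft and 69.8 and 70.6 in knockout on stiff hydrogel. The order of the groups had no overlap, with wild-type stiff lowest and knockout soft highest. Its stiffness effect was -0.72 ± 0.0581 (adjusted p = 1.3e-08) in wild type and -0.14 ± 0.0535 (adjusted p = 0.61) in knockout, with an interaction of 0.58 ± 0.0790 (adjusted p = 1.82e-05). Hgd, the homogentisate dioxygenase, was at 61.2 and 59.7 CPM in wild type on soft, 29.1 and 26.5 in wild type on stiff, 47.2 and 47.9 in knockout on soft and 46.6 and 44.6 in knockout on stiff hydrogel. Wild-type stiff libraries were again lowest, but here the wild-type soft libraries were highest. It fell 2.18-fold in wild type (log2 fold change -1.12 ± 0.0666, adjusted p = 1.69e-10) and had an interaction of 1.06 ± 0.0925 (adjusted p = 7.26e-08), the largest positive value among the 38 genes.

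Hpd, which makes homogentisate, and Fah, the fumarylacetoacetase that ends the route, differed by genotype. Hpd was at 56.7 and 56.0 CPM in wild type on soft, 66.2 and 70.7 in wild type on stiff, 35.7 and 33.7 in knockout on soft and 38.1 and 34.2 in knockout on stiff hydrogel, and knockout was lower, with log2 fold changes of -0.70 ± 0.0678 (adjusted p = 4.61e-07) on soft and -0.92 ± 0.0676 (adjusted p = 1.8e-09) on stiff hydrogel. Psmd9, which overlaps Hpd on the other strand with 55.8% of its mean counts, had 0.08 (adjusted p = 0.583) and -0.09 (adjusted p = 0.400). Fah was at 72.4 and 68.0 CPM in wild type on soft, 65.8 and 65.0 in wild type on stiff, 32.6 and 28.3 in knockout on soft and 29.8 and 30.3 in knockout on stiff hydrogel, with the knockout libraries between 28.3 and 32.6 CPM and the wild-type libraries between 65.0 and 72.4. Its differences were -1.20 ± 0.0696 (adjusted p = 4.94e-10) and -1.12 ± 0.0709 (adjusted p = 2.11e-10), and stiffness gave -0.11 in wild type. On stiff hydrogel, then, knockout cells had more Tat and Hgd and less Hpd and Fah than wild-type cells.

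All 4 genes of the tryptophan and kynurenine route had negative stiffness values in wild type, beside 50.9% of all genes tested. Tdo2 and Kmo passed both thresholds, beside 9.26% of all genes tested that fell. Tdo2, the tryptophan dioxygenase that opens the route and is largely restricted to liver, was at 81.0 and 80.0 CPM in wild type on soft, 36.4 and 36.2 in wild type on stiff, 129 and 120.3 in knockout on soft and 110.4 and 119 in knockout on stiff hydrogel. The genotypes did not overlap, with the wild-type stiff libraries lowest and the knockout libraries highest. It fell 2.22-fold on stiff hydrogel in wild type (log2 fold change -1.15 ± 0.0603, adjusted p = 2.89e-11), and the value in knockout was -0.12 ± 0.0538 (adjusted p = 0.634). Tdo2 was the single gene of the 38 that was higher in knockout on soft hydrogel, 1.55-fold (log2 fold change 0.63 ± 0.0548, adjusted p = 1.04e-07), and on stiff hydrogel it was 3.16-fold higher (log2 fold change 1.66 ± 0.0595, adjusted p = 6.09e-14).

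Kmo, the kynurenine monooxygenase, was at 47.9 and 41.4 CPM in wild type on soft, 26.4 and 25.7 in wild type on stiff, 35.6 and 35.3 in knockout on soft and 31.3 and 36.2 in knockout on stiff hydrogel. The wild-type stiff libraries were lowest and the wild-type soft libraries highest, and the stiffness effect was -0.78 ± 0.0857 (adjusted p = 6.92e-07) in wild type with an interaction of 0.71 ± 0.120 (adjusted p = 0.000185). Kmo overlaps Fh1 on the other strand, whose mean count was 425% of that of Kmo and whose own stiffness value in wild type was -0.28 (adjusted p = 0.000336). Haao, the 3-hydroxyanthranilate dioxygenase, was lower in knockout on both hydrogels, at -0.89 ± 0.0857 (adjusted p = 4.26e-07) on soft and -0.74 ± 0.0894 (adjusted p = 1.61e-06) on stiff. Kynu, the kynureninase, had -0.34 and -0.02 and did not pass.

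Histidine breakdown starts with Hal, which removes ammonia to give urocanate, and continues with Uroc1 and, at its end, Ftcd. Hal and Uroc1 changed in opposite directions on stiff hydrogel in wild type. Hal was at 17.9 and 16.5 CPM in wild type on soft, 11.9 and 12.1 in wild type on stiff, 10.6 and 9.90 in knockout on soft and 9.74 and 10.3 in knockout on stiff hydrogel, and fell on stiff hydrogel in wild type with a log2 fold change of -0.52 ± 0.112 (adjusted p = 0.00106). Without the first wild-type soft or the first wild-type stiff library that value was -0.45 or -0.50 and under the fold threshold. Uroc1, the urocanate hydratase, was at 48.8 and 50.8 CPM in wild type on soft, 74.7 and 74.6 in wild type on stiff, 24.4 and 20.4 in knockout on soft and 21.9 and 23.7 in knockout on stiff hydrogel. The wild-type stiff libraries were highest and the knockout libraries lowest, without overlap. Uroc1 rose 1.5-fold in wild type (log2 fold change 0.59 ± 0.0712, adjusted p = 2.48e-06), and knockout was lower 2.21-fold on soft (log2 fold change -1.14 ± 0.0780, adjusted p = 4.15e-09) and 3.27-fold on stiff hydrogel (log2 fold change -1.71 ± 0.0772, adjusted p = 1.59e-12). Its interaction of -0.57 ± 0.110 (adjusted p = 0.000688) was -0.43 and under the fold threshold without the first knockout soft library. Ftcd was lower in knockout, at -0.88 on soft and -0.64 on stiff hydrogel. All 3 genes were thus lower on soft hydrogel and 2 on stiff hydrogel, beside 4.65% and 15.0% of all genes tested.

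The serine, glycine and one-carbon genes had the smallest median size of change on stiff hydrogel in wild type among the 8 routes, 0.077. Of these 6 genes 1, Agxt, rose on stiff hydrogel in wild type, beside 10.0% of all genes tested. Its enzyme converts glyoxylate to glycine and serves glyoxylate detoxification. Agxt was at 10.0 and 11.7 CPM in wild type on soft, 15.4 and 15.4 in wild type on stiff, 8.66 and 7.71 in knockout on soft and 9.27 and 8.10 in knockout on stiff hydrogel, and its log2 fold change was 0.52 ± 0.128 (adjusted p = 0.00331). Without the first wild-type soft library its value was 0.41 with an adjusted p of 0.0504. Gldc, the decarboxylase of the glycine cleavage system, was at 87.5 and 88.6 CPM in wild type on soft, 73.8 and 68.7 in wild type on stiff, 87.3 and 89.7 in knockout on soft and 86.9 and 90.5 in knockout on stiff hydrogel, with the wild-type stiff libraries lowest and a stiffness effect of -0.30 ± 0.0545 (adjusted p = 0.000188). Sardh, the sarcosine dehydrogenase, was lower in knockout on soft hydrogel (log2 fold change -0.57 ± 0.0645, adjusted p = 3.15e-06), a value of -0.44 without the second wild-type soft library. Dmgdh, the dimethylglycine dehydrogenase, lay between 151 and 194 CPM in all 8 libraries. Sds had 15 to 26 counts per library, and its intervals spanned 0 in every comparison. Its neighbour Plbd2 on the other strand had far more counts, which makes the Sds counts uncertain if counting ignored strand. Amt, the aminomethyltransferase of the glycine cleavage system, did not pass in any comparison.

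In the methionine route, Mat1a fell and Gnmt and Cbs rose on stiff hydrogel in wild type. Mat1a, the liver form of methionine adenosyltransferase, was at 389 and 383 CPM in wild type on soft, 189 and 190.0 in wild type on stiff, 371 and 362 in knockout on soft and 363 and 369 in knockout on stiff hydrogel. The 6 libraries other than wild type on stiff lay between 362 and 389 CPM. The stiffness effect was -1.02 ± 0.0394 (adjusted p = 4.2e-13) in wild type and 0.00 ± 0.0384 (adjusted p = 0.998) in knockout, with an interaction of 1.02 ± 0.0549 (adjusted p = 1.21e-10). Gnmt, which uses S-adenosylmethionine to methylate glycine, was at 151 and 164 CPM in wild type on soft, 254 and 239 in wild type on stiff, 139.8 and 136 in knockout on soft and 146 and 141 in knockout on stiff hydrogel, and only the wild-type stiff libraries stood apart, above the rest. It rose on stiff hydrogel in wild type, with 0.65 ± 0.0506 (adjusted p = 7.96e-09), and had an interaction of -0.59 ± 0.0720 (adjusted p = 4.62e-06).

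Cbs, which commits homocysteine to transsulfuration, was at 106 and 111 CPM in wild type on soft, 173 and 168 in wild type on stiff, 78.7 and 73.9 in knockout on soft and 69.9 and 72.1 in knockout on stiff hydrogel. It rose on stiff hydrogel in wild type, with 0.65 ± 0.0513 (adjusted p = 9.13e-09), and the interaction was -0.75 ± 0.0746 (adjusted p = 3.7e-07). Knockout was lower on soft hydrogel, at -0.51 ± 0.0529 (adjusted p = 1.03e-06), a value close to the fold threshold that came to lie under it with upper quartile scaling (-0.50), with library size only (-0.46), with no filter on low counts (-0.50) and without the second wild-type soft (-0.48) or second knockout soft library (-0.47). On stiff hydrogel the difference was -1.26 ± 0.0529 (adjusted p = 5.41e-13). Cth, the next enzyme of transsulfuration, had a stiffness value of -0.43 ± 0.0659 (adjusted p = 3.62e-05) in wild type, opposite in sign to that of Cbs and under the fold threshold.

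Bhmt, which remethylates homocysteine with betaine, showed the largest genotype difference on soft hydrogel, and was at 46.3 and 46.3 CPM in wild type on soft, 60.9 and 66.1 in wild type on stiff, 12.4 and 12.1 in knockout on soft and 11.6 and 12.9 in knockout on stiff hydrogel. The knockout libraries all lay between 11.6 and 12.9 CPM. Knockout was 3.78-fold lower on soft (log2 fold change -1.92 ± 0.0816, adjusted p = 9.26e-12) and 5.18-fold lower on stiff hydrogel (log2 fold change -2.37 ± 0.0816, adjusted p = 3.42e-14). Part of its transcript is shared with Gm5096 (10.0% of 64-base windows), which had a mean of 82.9 counts. Ahcy had -0.34 and -0.39 for knockout and did not pass the fold threshold, and 75.4% of the windows of its transcript are shared with Gm4737. Ass1 shares 50.6% of its windows with Gm5424, and Glul 9.86% with Glns-ps1, which had a mean of 1.75 counts. Gm5424 had a mean of 1538 counts and a stiffness value in wild type of 0.31 (adjusted p = 0.0416), so the split of reads between Ass1 and this copy is uncertain.

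Aass, the bifunctional enzyme that takes lysine into the saccharopine route, showed the largest rise in wild type and the largest difference between the genotypes on stiff hydrogel. It was at 28.0 and 26.3 CPM in wild type on soft, 58.9 and 51.6 in wild type on stiff, 11.2 and 12.7 in knockout on soft and 10.9 and 8.65 in knockout on stiff hydrogel. The wild-type stiff libraries were highest, the wild-type soft libraries between, and all knockout libraries at 12.7 CPM or less. Stiffness raised Aass 2.03-fold in wild type (log2 fold change 1.02 ± 0.0971, adjusted p = 1.05e-07), the value in knockout was -0.28 ± 0.123 (adjusted p = 0.634), and the interaction was -1.31 ± 0.157 (adjusted p = 3.97e-06). Knockout was lower at -1.19 ± 0.110 (adjusted p = 2.26e-07) on soft hydrogel and at -2.50 ± 0.110 (adjusted p = 1.09e-12), or 5.65-fold, on stiff hydrogel.

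The branched-chain ketoacid dehydrogenase genes had interactions without a call in either genotype. Bckdha, which encodes the E1 alpha subunit, was at 21 and 23.9 CPM in wild type on soft, 16.3 and 16.3 in wild type on stiff, 18.1 and 19.8 in knockout on soft and 22.3 and 21.1 in knockout on stiff hydrogel, with stiffness values of -0.46 ± 0.0995 (adjusted p = 0.00113) in wild type and 0.20 ± 0.0974 (adjusted p = 0.658) in knockout and an interaction of 0.65 ± 0.139 (adjusted p = 0.00152). Bckdhb, the E1 beta subunit, had -0.43 and 0.15, with an interaction of 0.58 ± 0.154 (adjusted p = 0.00815). That interaction was 0.47 without the first wild-type soft library and 0.46 without the second wild-type stiff library, and neither passed both thresholds.

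**Figure D4:**
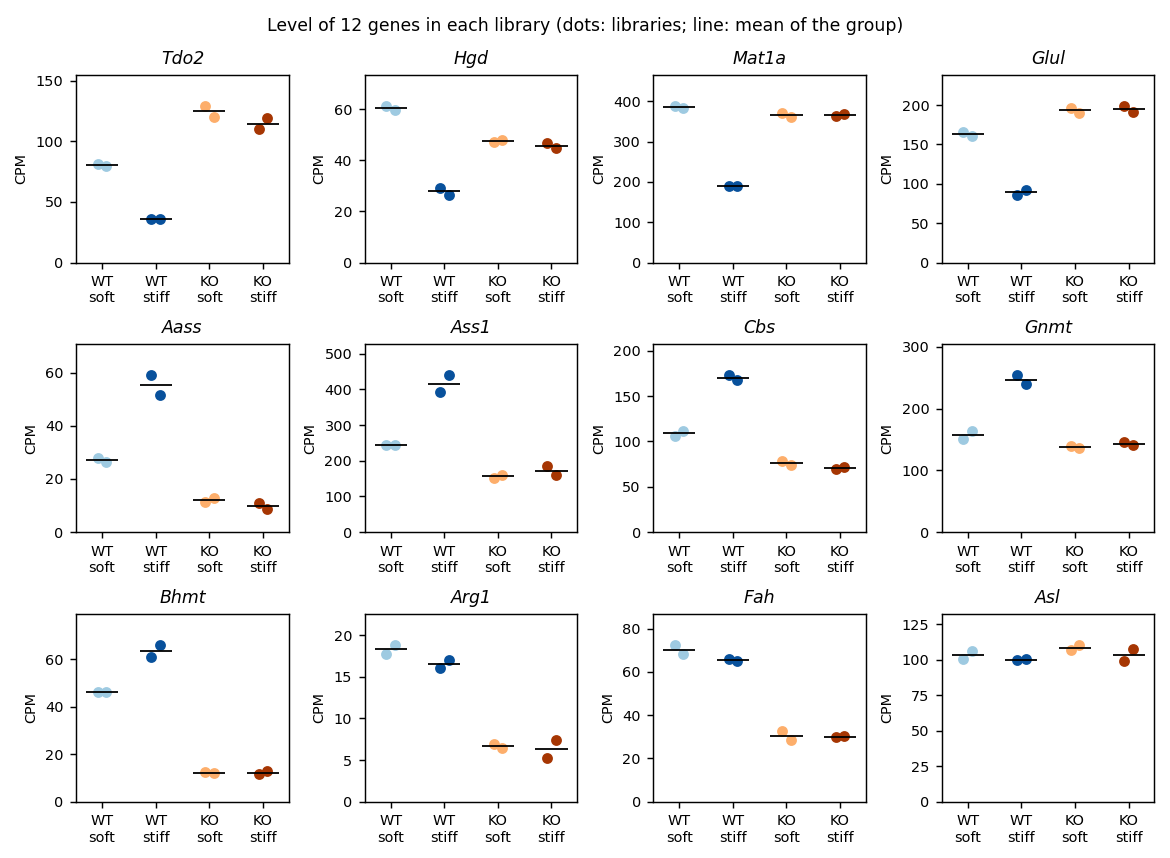
CPM of 12 genes in each library (dots) with the mean of the group (line), on axes that start at 0; WT is wild type and KO is Yap/Taz knockout. Tdo2, Hgd, Mat1a and Glul are lowest in wild-type stiff libraries, Aass, Ass1, Cbs and Gnmt are highest there, Bhmt, Arg1 and Fah are low in all knockout libraries, and Asl is level.

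Grouped by known position in the lobule, the 9 genes usually called periportal (Cps1, Otc, Ass1, Asl, Arg1, Gls2, Hal, Uroc1 and Sds) had 6 lower and 0 higher in knockout on soft hydrogel, and 6 lower and 0 higher on stiff hydrogel. Of the 27 genes given no position, 8 were lower on soft and 9 on stiff hydrogel, and of all genes tested 4.65% and 15.0%. The periportal medians were -0.75 and -1.0. In wild type on stiff hydrogel 2 of the 9 periportal genes rose and 1 fell, beside 10.0% and 9.26% of all genes tested. The pericentral genes were Glul and Oat, and Oat did not pass in any comparison, with -0.07 for knockout on stiff hydrogel. By compartment, the 14 mitochondrial genes had 4 lower in knockout on each hydrogel and 1 higher on stiff, and the 23 cytosolic genes had 10 lower on each hydrogel, with 1 higher on soft and 5 on stiff. Of all genes tested 2.02% were higher and 4.65% lower on soft, and 13.7% and 15.0% on stiff hydrogel.

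**Figure D5:**
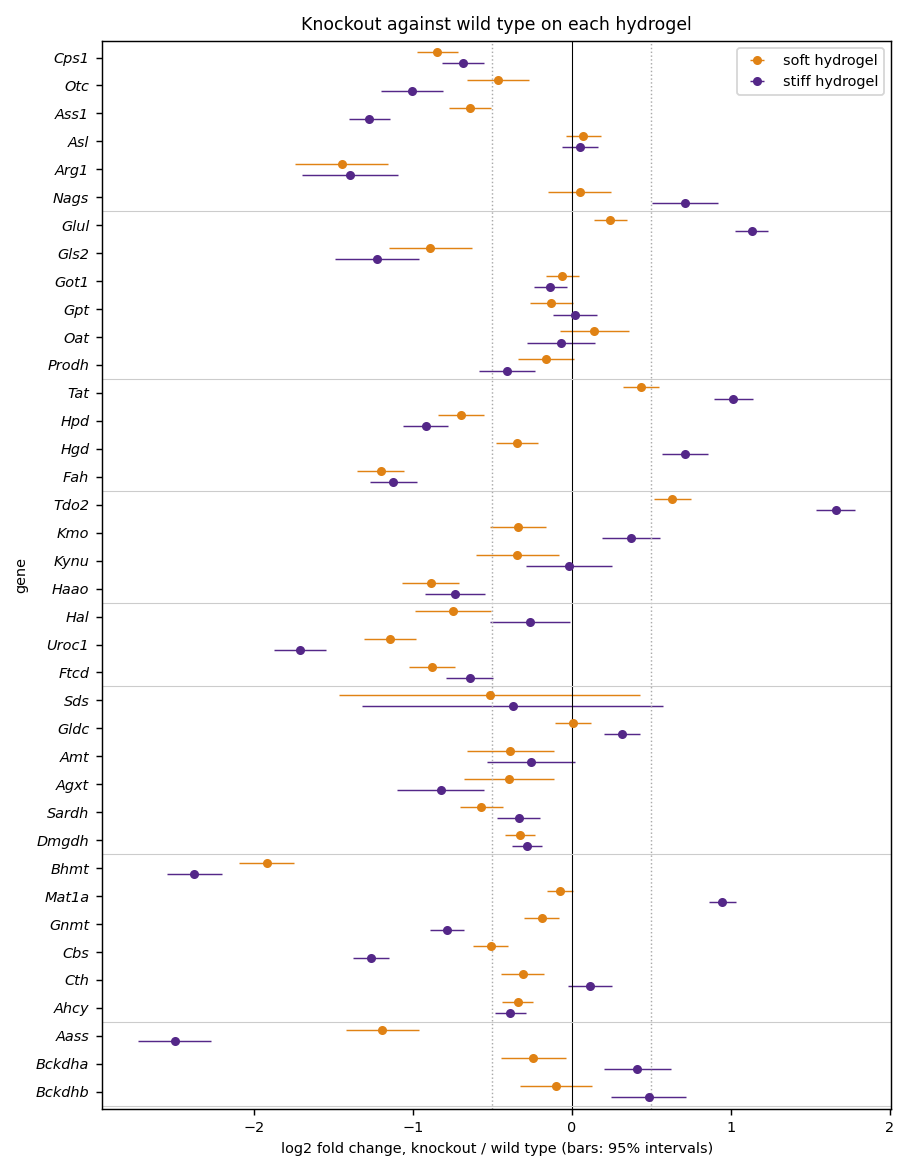
Log2 fold change of knockout over wild type on soft (orange) and stiff (purple) hydrogel for the 38 genes, with 95% intervals; dotted lines mark the fold threshold of 0.5 on either side of 0. The purple points reach from -2.50 (Aass) to 1.66 (Tdo2), and Hgd, Mat1a and Nags lie below or near 0 on soft hydrogel and above 0.5 on stiff hydrogel.

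Further genes of amino acid breakdown were examined as a list of 62, of which 61 were tested and Dao had 0 counts in every library. On stiff hydrogel in wild type 2 rose and 10 fell, beside 10.0% and 9.26% of all genes tested, with a median of -0.049 beside -0.0087. In knockout none passed the edgeR test, and DESeq2 called 0. By edgeR 6 of the 61 had an unadjusted p under 0.05 in knockout, beside 1077 of all 14279 genes tested. Cdo1, the cysteine dioxygenase that leads cysteine towards taurine and sulfate, was at 319.8 and 302 CPM in wild type on soft, 121 and 120.1 in wild type on stiff, 256 and 244 in knockout on soft and 257 and 262 in knockout on stiff hydrogel, and fell with a log2 fold change of -1.37 ± 0.0460 (adjusted p = 7.32e-14). Agxt2, a mitochondrial aminotransferase, was at 34.9 and 33.7 CPM in wild type on soft, 14.3 and 17.2 in wild type on stiff, 42.2 and 42.4 in knockout on soft and 41.0 and 40.7 in knockout on stiff hydrogel, and fell with -1.13 ± 0.0858 (adjusted p = 5.41e-09). Both were lowest in the wild-type stiff libraries and had interactions of 1.42 and 1.08. The 2 that rose were Ethe1, a persulfide dioxygenase of mitochondrial sulfide disposal, with 0.76 ± 0.0601 (adjusted p = 8.51e-09), and Acadsb, an acyl-CoA dehydrogenase of isoleucine breakdown, with 0.58 ± 0.0787 (adjusted p = 9.39e-06). Fgfr2 overlaps Acadsb on the other strand, with 15.2% of its mean count and a stiffness value in wild type of 0.49 (adjusted p = 0.048).

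Arg2, the mitochondrial arginase, had the largest fall of that list. Its counts were 71 and 64 in wild type on soft, 3 and 2 in wild type on stiff, 54 and 53 in knockout on soft and 56 and 45 in knockout on stiff hydrogel. The wild-type stiff libraries alone were near 0. The ratio of soft to stiff in wild type was 24.9, with an exact Poisson 95% interval of 10.4 to 78 that covers counting error only. Vti1b, on the other strand, had a mean count of 1800 and a stiffness value in wild type of 0.12 (adjusted p = 0.125). On stiff hydrogel 8 of the 61 genes were higher and 11 lower in knockout, beside 13.7% and 15.0% of all genes tested, and on soft hydrogel 2 were higher and 4 lower, beside 2.02% and 4.65%. Of 8 genes of serine, proline and asparagine synthesis and mitochondrial folate metabolism, Asns and Mthfd2 fell on stiff hydrogel in wild type, with -0.66 ± 0.0621 (adjusted p = 8.7e-08) and -0.51 ± 0.0758 (adjusted p = 2.96e-05), beside 9.26% of all genes tested. The value of Mthfd2 was close to the fold threshold, and DESeq2 called 1 fall among the 8. In knockout 0 of the 8 passed by edgeR, with 0 at an unadjusted p under 0.05, and 0 by DESeq2.

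Markers of other liver cells moved with the groups; their sums are per total counts of a library, without the TMM scaling used for single genes. The summed level of 6 endothelial markers was 51.0 to 56.3 CPM in wild-type soft, 35.9 to 36.3 in wild-type stiff and 70.2 to 75.2 in knockout libraries. That of 6 Kupffer cell and macrophage markers was 58.0 to 58.3, 41.0 to 45.8 and 78.4 to 83.6 CPM, mostly Cd68. That of 8 stellate cell and fibroblast markers was 31.3 to 31.6, 19.7 to 21.1 and 45.8 to 49.6 CPM. The 6 cholangiocyte markers summed to 539 to 573, 586 to 589 and 326 to 354 CPM, mostly Spp1, and 3 of them had at least 10 counts in every library, with Cftr at 0 throughout. Krt19 was the 1 cholangiocyte marker called for stiffness in wild type, with 47 and 44 counts on soft and 436 and 396 on stiff hydrogel, beside 11 to 17 in the knockout libraries. The 9 hepatocyte markers found summed to 91062 to 93816 CPM in wild type and 66047 to 66738 CPM in knockout, mostly Alb. On stiff hydrogel in wild type 0 of those 9 rose and 4 fell, beside 10.0% and 9.26% of all genes tested. The 4 were Cyp2e1 with a log2 fold change of -1.75, Hnf4a with -0.98, Asgr1 with -0.82 and Fgb with -0.60. In knockout against wild type on stiff hydrogel, Cyp2e1, Hnf4a and Asgr1 were higher and Alb was lower, beside 13.7% and 15.0% of all genes tested. Tdo2, Hgd, Mat1a and Glul were lowest in the wild-type stiff libraries, as were the endothelial, macrophage and stellate cell sums, although Col1a1 of the stellate cell list rose there with 0.78 (adjusted p = 0.00368), and the part of cell composition in the results was not tested.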

How the data were processed

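The deposited table holds raw counts of reads per gene. Per the labels and the study's methods, the authors aligned reads with HISAT2 2.0.5 and counted them with featureCounts. The paper states that cDNA was made with dUTP, but the strand setting of the counting is not given in the sources used here. The submitters' processing notes name build mm9. The positions of 0 of the 38 genes in the table equalled those of the GRCm38 annotation, and they were not compared with mm9 or any other build. Promoter positions therefore come from RefSeq (GRCm38.p6) alone. Groups were taken from the sample titles.

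The counts as deposited were tested with edgeR 4.0.16 in R 4.3.3: filterByExpr (minimum count 10), TMM scaling, and quasi-likelihood tests of 1 model of the 4 groups over all 8 libraries (common biological coefficient of variation 0.0542), with Benjamini-Hochberg adjustment over 14279 genes. CPM and RPKM were computed from the counts, with the gene lengths of the table. Depth was 18324083 to 26442310 reads, and a count of 0 allows up to 3 reads, 0.113 to 0.164 CPM. Replicates differed beyond sampling noise (chi-square per degree of freedom 2.62 to 5.45). Alternatives were DESeq2 1.42.0, other scalings, filters and fold thresholds, a replicate block, the 4 libraries compared alone, and each library left out. The test was checked on simulated counts.

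The genes and gene lists were chosen with earlier results of these data known. Values in every library were given for the urea cycle genes, Glul, Gls2, the 2 genes of each other route with the largest stiffness effect in wild type, and 4 genes chosen after their values were seen (Hpd, Fah, Bhmt, Gnmt). Of the other pathway genes, the 3 largest falls and up to 3 rises were named, and Asns and Mthfd2 as the only 2 calls of their list.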

Additional observations from a re-analysis of the deposited data

Results flagged for a closer look

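For 15 genes the stiffness effect differed between the genotypes by the interaction test of edgeR (log2 effect in knockout minus that in wild type). In 9 the difference was positive: Hgd with 1.06 (adjusted p = 7.26e-08), Tdo2 with 1.03 (adjusted p = 1.9e-08), Mat1a with 1.02 (adjusted p = 1.21e-10), Glul with 0.89 (adjusted p = 1.87e-08), Kmo with 0.71 (adjusted p = 0.000185), Nags with 0.66 (adjusted p = 0.0012), Bckdha with 0.65 (adjusted p = 0.00152), Bckdhb with 0.58 (adjusted p = 0.00815) and Tat with 0.58 (adjusted p = 1.82e-05). In 6 it was negative: Aass with -1.31 (adjusted p = 3.97e-06), Cbs with -0.75 (adjusted p = 3.7e-07), Ass1 with -0.63 (adjusted p = 2.23e-05), Gnmt with -0.59 (adjusted p = 4.62e-06), Uroc1 with -0.57 (adjusted p = 0.000688) and Otc with -0.54 (adjusted p = 0.00452). The same test called 16.8% of all genes. With 2 libraries per group no library could be examined as an outlier within its group.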

How the results depend on the processing

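Single genes were followed under every alternative that kept the fold threshold, and no called value reversed its sign. Of the 14 changes in wild type on stiff hydrogel, 11 kept their direction and passed both thresholds under all of these alternatives. The same held for 12 of 15 interactions, 13 of 15 differences between genotypes on soft hydrogel and 21 of 21 on stiff hydrogel. The others were Hal, Agxt and Nags in wild type, Bckdhb, Otc and Uroc1 for the interaction, and Cbs and Sardh on soft hydrogel. With no minimum fold change, the genes called among the 38 were 27 (11 higher, 16 lower) for stiffness in wild type and 26 (3 higher, 23 lower) for genotype on soft hydrogel, and among all genes 5859 for stiffness in wild type, 4192 for the interaction, and 2624 and 7299 for genotype on soft and stiff hydrogel. With a log2 fold change over 1, the 38 genes gave 4, 4, 5 and 12 calls in those comparisons, and all genes 1244, 1040, 353 and 2097. For stiffness in knockout, none of the 38 genes passed under any alternative, and the 3 calls among all genes became 50 with no filter on low counts, 1 with a log2 fold change over 1, 9 with the 4 libraries compared only and 1 to 8 when libraries were left out. When 1 library at a time was left out, the 38 genes gave 14 to 14 calls for stiffness in wild type, 13 to 17 interactions, and 14 to 17 and 21 to 22 for genotype on soft and stiff hydrogel; a group then left with 1 library is assumed to vary like the others. Same-numbered libraries did not deviate together (correlations 0.020 in wild type and -0.027 in knockout), so the numbers are not shown to pair the libraries, and the replicate block gave 14, 0, 15, 15 and 21 calls among the 38 genes and 2705, 3, 2330, 895 and 4071 among all genes, for stiffness in wild type and knockout, the interaction, and genotype on soft and stiff hydrogel. DESeq2 called 1 fall instead of 2 among the 8 synthesis genes and 8 falls instead of 10 among the 61 further breakdown genes for stiffness in wild type. Depth limits Sds and Arg2 most.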

Other observations

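Several steps of amino acid metabolism have a form typical of mature liver and a second form that many tissues use, and the second forms were looked at after their values were seen. Mat2a, the counterpart of Mat1a, had a stiffness value of 0.21 ± 0.0483 (adjusted p = 0.00164) in wild type and was lower in knockout on stiff hydrogel (log2 fold change -0.78 ± 0.0491, adjusted p = 2.15e-10), where Mat1a was higher (log2 fold change 0.95 ± 0.0394, adjusted p = 4.7e-13). Gpt2, the mitochondrial counterpart of Gpt, was lower in knockout on soft (log2 fold change -0.77 ± 0.0446, adjusted p = 4.63e-10) and stiff hydrogel (log2 fold change -0.80 ± 0.0449, adjusted p = 3.53e-11), and Gpt had -0.13 and 0.02. Glud1, the glutamate dehydrogenase that feeds ammonia to Cps1, had 0.47 ± 0.0285 (adjusted p = 2.3e-10) for stiffness in wild type and was lower in knockout on stiff hydrogel at -0.92 ± 0.0287 (adjusted p = 8.82e-15). All p-values are from edgeR and adjusted over all genes tested.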
